A study of Mus musculus with 21 samples.

Results

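Differentially methylated regions (DMRs) that lost methylation in intestinal adenoma were placed on the promoters of the mouse genome. Of the 13980 merged DMRs deposited, 8845 had lower signal in adenoma, and 531 of these (6% of them) overlapped a promoter by at least 1 bp. A promoter was taken as 1000 bp upstream to 500 bp downstream of the start site of any transcript in gencode vM1, on the mm9 build. The 531 hypomethylated promoter DMRs touched the promoters of 547 genes. They are described here beside the 8314 hypomethylated DMRs outside promoters, the 496 hypermethylated promoter DMRs and the 425076 windows of the genome of 500 bp that overlap a promoter.

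Methylated DNA was precipitated with an antibody against 5-methylcytidine and sequenced (MeDIP-seq) from ileum of male C57BL/6J mice aged 15 to 19 weeks. Normal intestine came from 3 wild-type mice (Apc-+/+, here B6, samples B1, B2 and B3) and from 3 Apc-Min/+ mice (here APCMin, samples N4, N5 and N6), and 5 adenomas came from Apc-Min/+ mice and are named Ad4, Ad4-1, Ad5, Ad6 and Ad7. N4, Ad4 and Ad4-1 were taken from 1 mouse, N5 and Ad5 from another, and N6 and Ad6 from another, whereas Ad7 had no normal sample of its own mouse. The 5 adenomas therefore stand for 4 mice. All Apc-Min/+ samples, normal or adenoma, carried the same germline allele in every cell type. Codes in the sample titles number the libraries by series, without saying whether a series is a preparation or a sequencing run. Series 4 held B1, B2, N4, Ad4 and Ad4-1, series 9 held N5, N6 and Ad5, series 10 held B3 and Ad6, and series 2 held Ad7. MeDIP libraries held 13878615 to 26297510 uniquely aligned reads, and the 3 input libraries of DNA without precipitation (B3, N4 and Ad7) held 3228908 to 5931425. Whole pieces of tissue were homogenised, so that lower methylation within cells and a changed mix of cell types cannot be told apart. The labelled tissue was not checked against marker transcripts, since no expression values were used here.

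Cytosines followed by guanine (CpG) carry most of the methylation of mouse DNA. Promoters with many CpGs, in CpG islands, are mostly free of methylation whatever the state of the gene, whereas promoters with few CpGs are often methylated in cells that do not use them and free of it in cells that do. In the intestine, Apc restrains Wnt signalling, and Apc-Min/+ mice develop adenomas after loss of the remaining wild-type copy.

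The 7 sequences that follow are shown because they come from the promoter DMRs with the lowest adenoma to normal ratio under the naming rule given below, and because they let the spacing of CpGs be read directly. Each is 250 bases of mm9 near the centre of its DMR, outside any annotated untranslated region, written 5′ to 3′ on the strand of the gene with every CpG in capitals.
Pla2g10, chr16:13731077-13731326, minus strand: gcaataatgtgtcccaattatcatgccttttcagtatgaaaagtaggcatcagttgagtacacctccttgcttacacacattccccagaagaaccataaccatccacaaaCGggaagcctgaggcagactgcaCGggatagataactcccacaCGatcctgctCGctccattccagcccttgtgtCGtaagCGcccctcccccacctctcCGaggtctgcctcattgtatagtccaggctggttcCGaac
Pla2g2a, chr4:138388126-138388375, plus strand: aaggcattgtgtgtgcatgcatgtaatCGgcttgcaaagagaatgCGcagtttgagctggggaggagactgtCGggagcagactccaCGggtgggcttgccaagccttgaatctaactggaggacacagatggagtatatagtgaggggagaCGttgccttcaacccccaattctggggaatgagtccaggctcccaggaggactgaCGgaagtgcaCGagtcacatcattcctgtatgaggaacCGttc
Arhgap8, chr15:84600501-84600750, plus strand: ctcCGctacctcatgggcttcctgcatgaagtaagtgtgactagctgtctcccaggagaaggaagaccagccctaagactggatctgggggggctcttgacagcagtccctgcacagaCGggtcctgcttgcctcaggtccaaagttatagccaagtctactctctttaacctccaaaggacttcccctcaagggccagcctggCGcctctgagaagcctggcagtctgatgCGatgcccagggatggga
Pef1, chr4:129778751-129779000, plus strand: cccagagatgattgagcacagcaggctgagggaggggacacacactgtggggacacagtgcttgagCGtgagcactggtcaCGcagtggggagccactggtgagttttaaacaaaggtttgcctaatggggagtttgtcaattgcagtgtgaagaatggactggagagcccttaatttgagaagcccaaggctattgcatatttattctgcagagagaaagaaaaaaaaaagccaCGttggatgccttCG
S100a16, chr3:90342376-90342625, plus strand: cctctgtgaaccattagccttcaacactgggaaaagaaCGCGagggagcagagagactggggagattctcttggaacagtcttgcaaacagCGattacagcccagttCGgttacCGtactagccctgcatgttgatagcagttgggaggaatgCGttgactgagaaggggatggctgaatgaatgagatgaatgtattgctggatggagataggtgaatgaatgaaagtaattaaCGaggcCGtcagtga
Ubtf, chr11:102171876-102172125, minus strand: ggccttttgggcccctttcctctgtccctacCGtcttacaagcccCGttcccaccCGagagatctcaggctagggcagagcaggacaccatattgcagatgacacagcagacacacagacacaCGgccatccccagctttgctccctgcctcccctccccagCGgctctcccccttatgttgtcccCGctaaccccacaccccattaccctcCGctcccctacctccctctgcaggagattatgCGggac
Ddc, chr11:11736751-11737000, minus strand: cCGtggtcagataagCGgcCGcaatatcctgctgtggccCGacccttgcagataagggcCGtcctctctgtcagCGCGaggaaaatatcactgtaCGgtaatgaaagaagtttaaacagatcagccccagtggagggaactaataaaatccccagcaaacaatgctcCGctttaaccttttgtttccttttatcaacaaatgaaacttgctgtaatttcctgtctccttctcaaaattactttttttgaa
These stretches held between 4 and 9 CpGs, at Arhgap8 and Pef1 (4 each) and at Ddc (9). Stretches taken in the same way at AL645963.1 and Tspo2, which are not shown, held fewer, with 2 and 3 CpGs. The S100a16 and Ddc stretches each hold 1 place where 2 CpGs adjoin.

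Signal is given in rpm, the mean coverage of the region by extended reads after scaling to the uniquely aligned reads in each library. Over the 531 promoter DMRs, the mean signal was 0.485, 0.482 and 0.489 rpm in B1, B2 and B3 and 0.469, 0.465 and 0.482 rpm in N4, N5 and N6. In Ad4, Ad4-1, Ad5, Ad6 and Ad7 it was 0.289, 0.263, 0.278, 0.293 and 0.279 rpm. Every adenoma lay below every normal sample, and the spread among adenomas (SD 0.012 rpm, n = 5) and among normal samples (SD 0.009 rpm, n = 6) was small beside the gap between 0.281 and 0.479 rpm. Because the regions were listed by this very comparison, the gap is a description and was not tested. The median log2 ratio of adenoma to normal, taken from group means after adding 0.05 rpm, was -0.68 with quartiles of -0.83 and -0.55. Outside promoters the hypomethylated DMRs gave a median of -0.63, and their sample means (0.271 to 0.302 rpm in adenoma, 0.466 to 0.495 rpm in normal intestine) overlapped those in promoters.

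**Figure D1:**
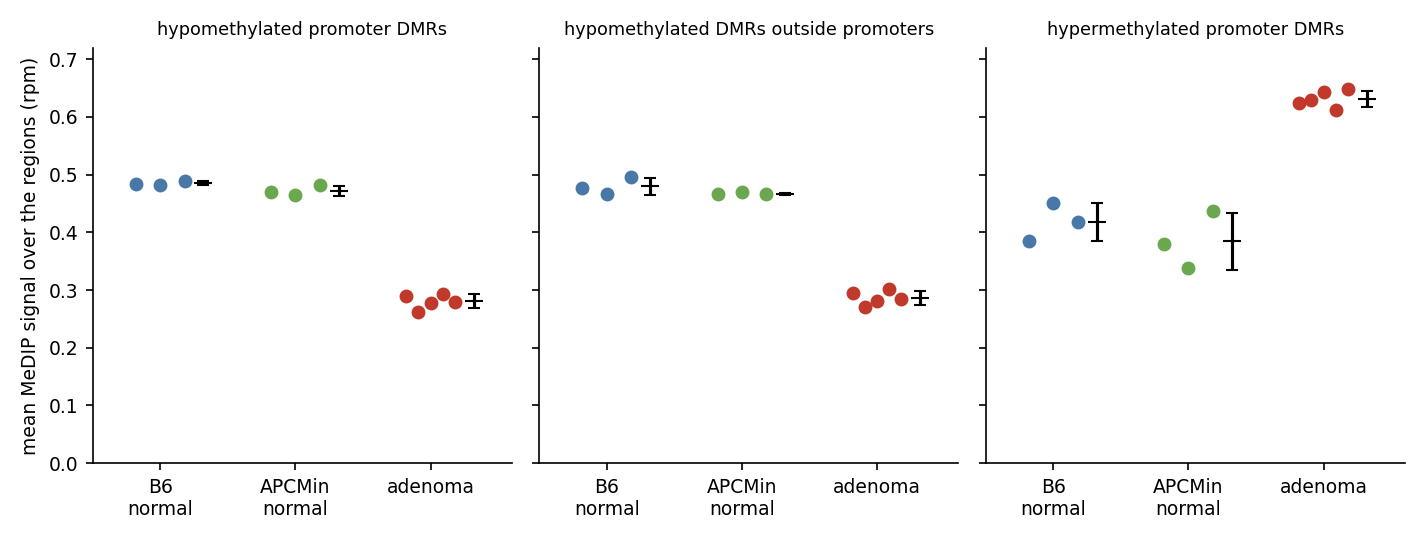
Mean MeDIP signal in rpm of each sample (points) over the regions of 3 sets, with the mean and SD of each group (black). Over the hypomethylated promoter DMRs the 5 adenomas sit between 0.263 and 0.293 rpm, all below the 6 normal samples at 0.465 to 0.489 rpm.

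At 284 of the 531 promoter DMRs (53.5%) every adenoma was below every normal sample, as at 51.9% of all hypomethylated DMRs. When the listing criteria were applied again to the merged rpm values, 481 (90.6%) met them, against 89.2% of all hypomethylated DMRs. The adenoma mean was less than 0.5 times the normal mean at 126 promoter DMRs (23.7%), against 18.3% of all hypomethylated DMRs. All 5 adenomas were below the normal mean at each of the 531. Within library series 4, Ad4 and Ad4-1 were both below B1, B2 and N4 at 481 (90.6%), against 89.7% of all hypomethylated DMRs. Compared with normal tissue of the same mouse, Ad4 was lower at 523, Ad4-1 at 521, Ad5 at 519 and Ad6 at 519 promoter DMRs. All 4 held at 489 (92.1%), against 91.2% of all hypomethylated DMRs. Apart from the share under 0.5 times, these shares were within 2 percentage points of the background. In limma, all 531 were called lower in adenoma (63.3% of all merged DMRs were), from which nothing can be read because the same contrast listed them. When every sample was rescaled to the same mean over all merged DMRs, 152 of the 531 met the criteria and the median log2 ratio was -0.49. Most merged DMRs (8845 of 13980) had themselves been listed for lower signal in adenoma, so that this rescaling raises the adenomas by construction.

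The adenomas differed little among themselves. The median log2 ratio to the mean of normal samples was -0.63 in Ad4, -0.75 in Ad4-1, -0.68 in Ad5, -0.61 in Ad6 and -0.65 in Ad7. The lowest and second highest of these medians came from the adenomas of 1 mouse. Ad4-1 was the single lowest adenoma at 130 promoter DMRs and Ad4 at 69, while Ad6 was the single highest at 132. Against the normal tissue of its own mouse, the median was -0.61 in Ad4, -0.71 in Ad4-1, -0.63 in Ad5 and -0.61 in Ad6.

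Among promoter DMRs with complete separation of the groups and a normal mean of at least 0.5 rpm, the 10 with the lowest ratio lay at Pla2g10, Pla2g2a, Arhgap8, Pef1, S100a16, Ubtf, AL645963.1, Ddc, Tspo2 and Nedd4l. The lowest ratio was that of Pla2g10, a secreted phospholipase A2. Its DMR (chr16:13730751-13731500) covered the start site at the 5′ end of the gene and held 18 CpGs. Signal was 0.51, 0.70 and 0.75 rpm in B6, 0.26, 0.41 and 0.46 rpm in APCMin normal intestine and 0.13, 0.22, 0.08, 0.12 and 0.07 rpm in the adenomas. The 3 groups did not overlap, with APCMin normal intestine between the others, although limma did not call its difference from B6 (below). The normal mean was 4.15 times the adenoma mean (log2 ratio -1.70), and the log2 ratio was -1.19 when only the normal tissue of the same mice was used.

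Pla2g2a, a gene of the phospholipase A2 family that the study names as a known modifier of adenoma development, followed with a log2 ratio of -1.46. Its DMR (chr4:138387751-138388750) was 1000 bp long and covered a start site of the gene, which the annotation classes as a processed transcript. Signal was 0.89, 1.24 and 1.31 rpm in B6, 1.13, 1.27 and 1.08 rpm in APCMin normal intestine and 0.41, 0.49, 0.36, 0.39 and 0.29 rpm in the adenomas. Here both normal groups were alike and all 5 adenomas stood well below them (1.15 ± 0.16 rpm, SD, n = 6, against 0.388 ± 0.073 rpm, n = 5).

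Arhgap8, a GTPase-activating protein, carried its DMR (chr15:84600251-84601000) at an internal start site and over a coding exon. It had 0.50, 0.47 and 0.53 rpm in B6, 0.67, 0.54 and 0.33 rpm in APCMin normal intestine and 0.24, 0.14, 0.21, 0.23 and 0.15 rpm in the adenomas. N6 was thus the normal sample nearest to the adenomas. At Pef1, a calcium-binding protein of the penta-EF-hand family, the DMR (chr4:129778501-129779250) lay upstream of the gene, its centre at -927 bp from the start site. It had 0.55, 0.64 and 0.65 rpm in B6, 0.43, 0.37 and 0.44 rpm in APCMin normal intestine and 0.29, 0.14, 0.15, 0.32 and 0.15 rpm in the adenomas. As at Pla2g10, the 3 groups did not overlap and APCMin normal intestine was in the middle. APCMin normal intestine lay wholly below B6 at 34 promoter DMRs (6.4%), against 5.1% of all hypomethylated DMRs. In limma, 0 of the 531 were called between these normal groups.

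S100a16, another calcium-binding protein, had a DMR of 1000 bp (chr3:90342001-90343000) over an internal start site. Signal was 0.62, 1.03 and 0.98 rpm in B6, 0.45, 0.73 and 0.81 rpm in APCMin normal intestine and 0.37, 0.30, 0.31, 0.34 and 0.34 rpm in the adenomas, which were much closer to each other than the normal samples were. A further DMR over another S100a16 promoter had a log2 ratio of -0.68. Ubtf, a transcription factor of RNA polymerase I, carried its DMR (chr11:102171501-102172500) over coding exons and a CpG island, with 40 CpGs. It had 0.96, 0.69 and 0.78 rpm in B6, 0.91, 0.85 and 1.32 rpm in APCMin normal intestine and 0.36, 0.34, 0.38, 0.49 and 0.46 rpm in the adenomas. N6 was the highest of all samples there, and no adenoma reached a normal sample.

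Ddc, the decarboxylase that makes dopamine and serotonin, had 2 promoter DMRs about alternative start sites. At the one chosen by the rule (chr11:11736501-11737250, 23 CpGs, in a CpG island), B6 had 0.58, 0.64 and 0.49 rpm and APCMin normal intestine had 0.95, 0.69 and 0.77 rpm. The adenomas had 0.33, 0.31, 0.17, 0.29 and 0.48 rpm, so that Ad7 came within 0.01 rpm of B3. The second, at the 5′ part of the gene, had a log2 ratio of -1.19. At AL645963.1, annotated as a miRNA gene, the log2 ratio was -1.08 and the DMR held only 5 CpGs. At Tspo2, a relative of the mitochondrial translocator protein, adenoma values ran from 0.25 to 0.35 rpm and normal ones from 0.50 to 0.72 rpm. At Nedd4l, a ubiquitin ligase that acts on epithelial sodium channels, the ranges were 0.20 to 0.46 rpm and 0.56 to 0.89 rpm. Of the 10, those at Pla2g10, Pla2g2a, Pef1, AL645963.1 and Tspo2 overlapped a promoter at a gene's 5′ end, while the other 5 overlapped only promoters of transcripts that start elsewhere in the gene.

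**Figure D2:**
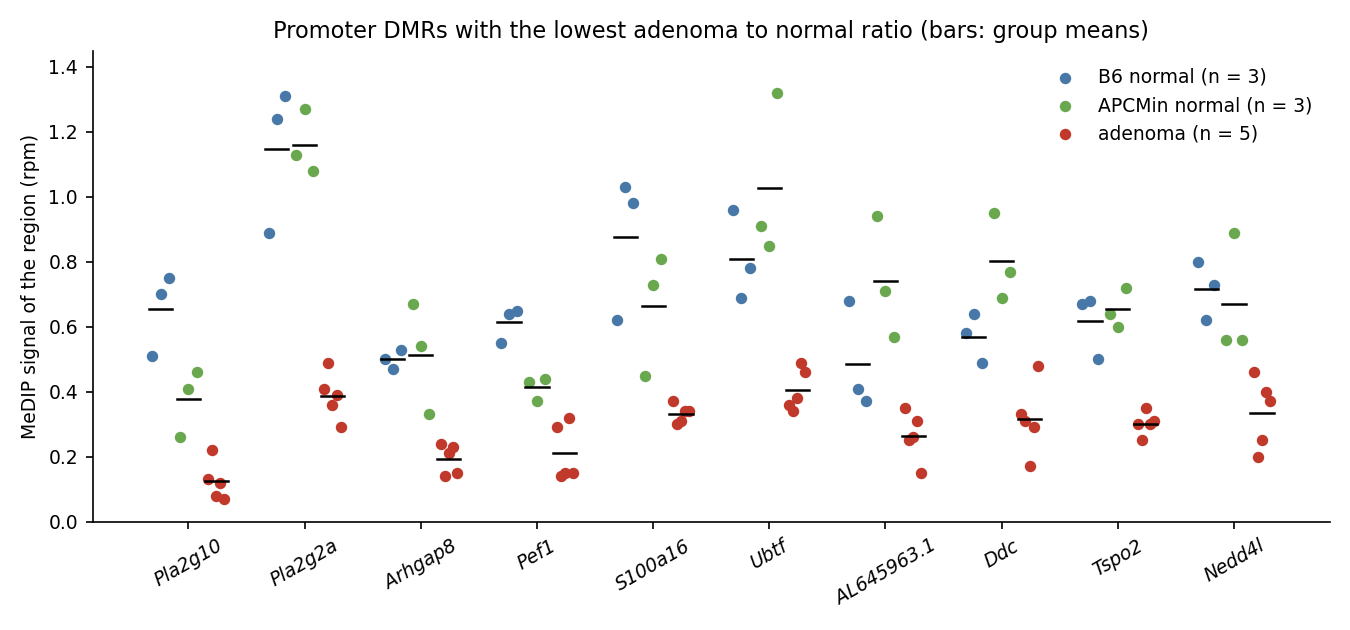
MeDIP signal in rpm of every sample (points) at 10 promoter DMRs, with the mean of each group as a black bar. They have the lowest adenoma to normal ratio among those with complete separation of the groups and a normal mean of at least 0.5 rpm. At each gene all 5 adenomas lie below all 6 normal samples, as the choice required, with the smallest gap at Ddc (0.48 against 0.49 rpm).

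Input DNA was lowest in the adenoma too, by less than the MeDIP signal. Over the 531 promoter DMRs the inputs of B3, N4 and Ad7 had means of 0.199, 0.167 and 0.154 rpm, and over the hypomethylated DMRs outside promoters it was 0.179, 0.157 and 0.152 rpm. At Pla2g10 the input was 0.02, 0.23 and 0.31 rpm, highest in the adenoma, and at Pla2g2a it was 0.19, 0.25 and 0.25 rpm. At 0.5 rpm the input of B3 amounts to 2.69 fragments in 500 bp, so that a change at a single region was not detectable at this depth. With 1 adenoma input, its part in the MeDIP difference was not tested.

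The promoter DMRs with the most CpGs lay at Hoxa5, Ckap4 and Cdc42bpg. Hoxa5, a homeobox transcription factor, had 59 CpGs in 500 bp (chr6:52153751-52154250) over its coding exon. Signal was 1.04, 0.65 and 0.64 rpm in B6, 0.75, 0.50 and 1.09 rpm in APCMin normal intestine and 0.46, 0.41, 0.36, 0.49 and 0.44 rpm in the adenomas, with N5 just above Ad6. A neighbouring Hoxa5 DMR with 37 CpGs had a log2 ratio of -0.89. Ckap4, a membrane protein that anchors the endoplasmic reticulum to microtubules, had 53 CpGs and a log2 ratio of -0.89, and Cdc42bpg, a kinase bound by Cdc42, had 50 CpGs and a log2 ratio of -0.72. The Cdc42bpg DMR (chr19:6321751-6323250) was also the longest at 1500 bp, and its signal was even within groups, at 0.98 to 1.22 rpm in normal intestine and 0.60 to 0.73 rpm in adenoma. The next longest lay at 1500001M20Rik and at Obfc1, a protein of telomere replication, both 1250 bp, with log2 ratios of -0.68 and -0.88.

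The adenomas differed most at weak regions. At Mybpc1, a muscle myosin-binding protein, they had 0, 0.10, 0.07, 0.17 and 0.21 rpm in Ad4, Ad4-1, Ad5, Ad6 and Ad7. At Pabpc1, a poly(A)-binding protein, they had 0.20, 0.11, 0.11, 0.09 and 0 rpm, and at Dst, a linker of the cytoskeleton, 0, 0.14, 0.18, 0.18 and 0.07 rpm. Ad4 was lowest at Mybpc1 and Dst, and Ad7 at Pabpc1. At 0.25 rpm a sample holds 5.78 to 10.96 fragments in 500 bp, with a counting error of 30.2% to 41.6%, and the log2 range among adenomas was wider at promoter DMRs with a normal mean under 0.3 rpm (median 0.82) than at those of 0.6 rpm or more (0.63).

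At the other end, the ratios closest to 0 were those at Srgap1, a GTPase-activating protein of the Slit pathway (log2 ratio -0.37), Susd1 (-0.38) and Cgref1 (-0.39), just past the fold threshold of the listing. At the edge of the promoter rule, the DMRs at Spata21 and SNORA36 overlapped a promoter by 3 and 5 bp and had log2 ratios of -0.65 and -0.60. The nearest DMRs left outside, on chromosomes 7 and 2, ended 2 and 5 bp away and had log2 ratios of -0.42 and -0.49.

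Several groups of genes were read from lists. Of 56 enterocyte and brush border genes, 6 had a hypomethylated promoter DMR (10.7%), against 1.86% of the 22367 protein-coding genes. A hypermethylated one was present at 2 others (Abcg5 and Slc9a3), and at 401 of the 22367 protein-coding genes. The 6 hypomethylated ones were Hal (histidine breakdown), Slc2a5 (fructose transport), Apoc2 (lipoprotein metabolism), Slc7a7 (export of basic amino acids), Aqp8 (a water channel) and Cdhr2 (a cadherin between microvilli), with log2 ratios of -0.97 to -0.63. At Slc2a5 normal intestine had 0.68, 0.81, 0.67, 0.55, 0.63 and 0.81 rpm in B1 to N6 and the adenomas had 0.46, 0.34, 0.32, 0.28 and 0.48 rpm. No adenoma reached the lowest normal sample there, whereas at Apoc2 Ad4 (0.37 rpm) was above B3 (0.35 rpm). All of the lists, here and below, were chosen with earlier results of these data known. Their counts, and their shares beside that of all protein-coding genes, are descriptions and not tests.

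Of 40 genes of goblet, Paneth, enteroendocrine and tuft cells, 5 had a hypomethylated promoter DMR (12.5%, against 1.86% of protein-coding genes). They were Pla2g10 and Pla2g2a (above), and Lrrc26 (a channel subunit of secretory cells, in a promoter shared with Tmem210). The others were Reg4 (a lectin of secretory cells) and Pou2f3 (a tuft cell transcription factor). Log2 ratios of the 5 were -1.70 to -0.65. This list was also chosen with earlier results of these data known, and its share is a description. Reg4 showed 0.38, 0.32 and 0.30 rpm in B6, 0.49, 0.34 and 0.32 rpm in APCMin normal intestine and 0.23, 0.30, 0.14, 0.28 and 0.10 rpm in the adenomas, in which Ad4-1 equalled B3. None of the 40 genes had a hypermethylated promoter DMR, but 401 of 22367 protein-coding genes did, and a list of 40 is too small to set 0 apart from that.

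Of 74 genes of junctions, keratins and matrix, none had a hypermethylated promoter DMR, in a list too small to set 0 apart from 401 of 22367. In this list, also chosen with earlier results of these data known, a hypomethylated one was present at 8 of the 74 (10.8%, against 1.86% of protein-coding genes). Among them were Dsp (a desmosome plaque protein), Gjb1 (a connexin), Itgb4 (an integrin of hemidesmosomes), Marveld3 (tight junctions), Mmp14 (a membrane metalloprotease), Plek2 (an adaptor of the cytoskeleton) and Rtkn (an adaptor of small GTPases). The log2 ratios of the list ran from -1.15 to -0.50 with a median of -0.85. Dsp had 1.13, 0.82 and 0.99 rpm in B6, 1.07, 1.28 and 1.13 rpm in APCMin normal intestine and 0.66, 0.24, 0.57, 0.91 and 0.65 rpm in the adenomas. The adenomas of mouse 4 lay apart there, with Ad4-1 at 0.24 and Ad4 at 0.66 rpm, and Ad6 exceeded B2. Plek2 had the lowest ratio of the list, with 0.28 to 0.48 rpm in normal intestine and 0.11 to 0.18 rpm in adenoma.

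Of 51 epithelial transcription factors and splicing regulators, 3 had a hypomethylated promoter DMR (5.88%, against 1.86% of protein-coding genes) and 5 a hypermethylated one. Among the 3 were Hnf4a, a transcription factor of enterocytes and hepatocytes, and Rbm47, an RNA-binding protein of epithelia with a log2 ratio of -0.91. At Hnf4a the DMR lay over an internal promoter, at 0.40 to 0.44 rpm in normal intestine and 0.38, 0.25, 0.27, 0.27 and 0.31 rpm in the adenomas (log2 ratio -0.43). The growth factor and immediate early list gave Smad7, an inhibitor of TGF-beta signalling, as 1 of 68 genes (1.47%, below the share of all protein-coding genes, log2 ratio -0.66), while 1 other, Dusp8, had a hypermethylated promoter DMR. The list of stroma, vessel, muscle and nerve gave Vim, an intermediate filament of mesenchyme, as 1 of 32 (3.1%, log2 ratio -0.61), while Elavl4 and Tek had a hypermethylated promoter DMR. None of 64 Wnt pathway and stem cell genes and none of 56 leukocyte genes had a hypomethylated promoter DMR, while 1 and 3 of them had a hypermethylated one. Lists of this size are too small to set 0 apart from the 1.86% of all protein-coding genes.

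Although most nearest genes were protein-coding (412 of 531, 77.6%), others were processed transcripts (48), pseudogenes (30), lincRNAs (16), snoRNAs (11) and miRNAs (4). One promoter DMR (chr6:124667751-124668500), singled out after its values were seen, overlapped promoters of Mir141 and Mir200c, miRNA genes known in epithelia for holding down mesenchymal transcription factors. Their mature strands from RefSeq (GRCm38.p6 table, sequence only) are shown with the seed, bases 2 to 8, in capitals.
mmu-miR-141-3p: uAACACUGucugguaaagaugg
mmu-miR-200c-3p: uAAUACUGccggguaaugaugga
The seeds of the pair are similar but not the same. Signal at this DMR was 0.49, 0.28 and 0.24 rpm in B6, 0.31, 0.19 and 0.31 rpm in APCMin normal intestine and 0.15, 0.06, 0.11, 0.19 and 0.11 rpm in the adenomas. The log2 ratio was -1.02, and the groups met at 0.19 rpm, the value of both N5 and Ad6. Input of B3 was 0.54 rpm in this region, above its MeDIP signal, against 0.03 and 0.16 rpm in N4 and Ad7.

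To compare normal intestine of APCMin and B6 mice at these regions, N4 to N6 were set against B1 to B3. The listing contrast pooled these samples, so that the difference between them was not itself a criterion. A region where N4 to N6 were as low as the adenomas could, however, hardly meet the listing criteria. The comparison therefore cannot tell whether other promoters had lost their signal already in normal intestine of APCMin mice. Signal over all promoter DMRs was 0.485 ± 0.004 rpm in B6 and 0.472 ± 0.009 rpm in APCMin normal intestine (SD, n = 3 each). In limma, fitted to all 13980 merged DMRs, 0 of the 531 promoter DMRs passed an adjusted p of 0.05 (0% of all merged DMRs did), and the lowest adjusted p among them was 0.969. At an unadjusted p under 0.05 there were 23, against 4.32% of all merged DMRs. The log2 difference of APCMin normal from B6 ranged from -1.13 to 0.65 with a median of -0.04 (-0.02 over all merged DMRs) and a median standard error of 0.22. With 3 samples in each group, 0 calls do not show that no region differed. Signal did not overlap between the groups, with APCMin lower, at 34 promoter DMRs (6.4%, background 5.1%) and, with APCMin higher, at 13 (2.45%, background 3.02%). Series 4 holds 1 APCMin normal sample, too few for a comparison within it. N5 and N6 are of series 9, which holds no B6 sample, so that genotype and series cannot be fully told apart.

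The lowest p belonged to Synj2, an inositol phosphatase of membrane traffic, whose DMR (chr17:5975251-5975750) lay over an internal start site. B6 had 0.29, 0.65 and 0.82 rpm, APCMin normal intestine 0.14, 0.24 and 0.31 rpm and the adenomas 0.13, 0.13, 0.06, 0.11 and 0.03 rpm. B1 lay within the range of APCMin normal intestine, so that the groups overlapped. Its log2 difference was -1.13 (SE 0.34, adjusted p of 0.969 by limma), and it was the only promoter DMR past a log2 difference of 1. With a pseudocount of 0.5 rpm in place of 0.05 rpm, it was called (adjusted p of 0.0403 by limma). At Pla2g10, where B6 and APCMin normal intestine did not overlap, the log2 difference was -0.74 (SE 0.26, adjusted p of 0.999 by limma). At Hdac5, a histone deacetylase, B6 had 0.58 to 0.62 rpm and APCMin normal intestine 0.31 to 0.46 rpm. Its unadjusted p of 0.00505 in limma did not hold after adjustment over all regions. Hdac5 was picked outside the naming rules, from the 23 promoter DMRs with an unadjusted p under 0.05, a share near the background.

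**Figure D3:**
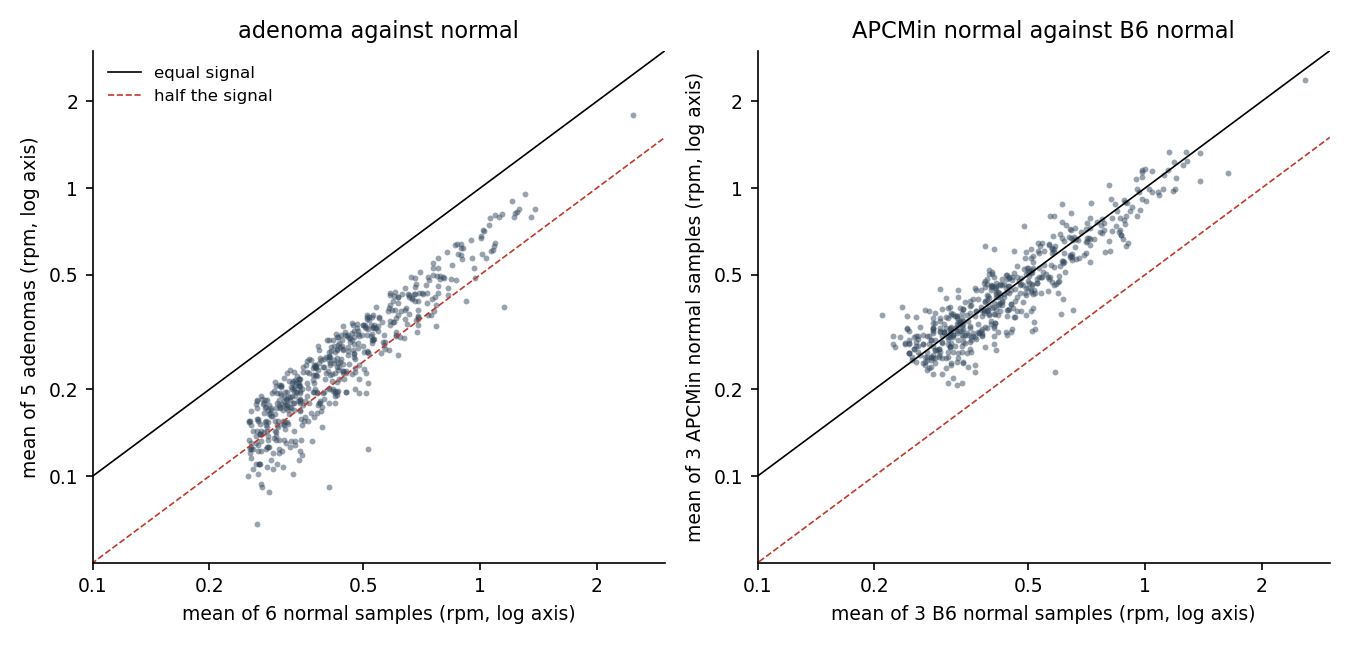
Group means in rpm of the 531 promoter DMRs on log axes, adenoma against all normal samples (left) and APCMin normal against B6 normal intestine (right), with lines of equal signal and of 0.5 times the signal. On the left every point lies below the line of equal signal, and on the right the points scatter about it, with 289 below and 237 above.

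The promoter DMRs were spread over the whole promoter. Their centres lay between -1459 bp (upstream) and 862 bp (downstream) of the nearest start site, with a median of -163 bp. Of the centres, 317 were upstream and 214 downstream of it, under a promoter rule that itself reaches further upstream. Within 500 bp upstream lay 24.9% of the centres, against 26.2% of promoter windows. From 500 to 1000 bp upstream it was 20.3% against 22.7%, and further upstream 14.5% against 10.7%. A start site lay inside 181 of them (34.1%), against 28.6% of promoter windows of the genome and 36.3% of hypermethylated promoter DMRs, although merged regions are longer than windows (596 ± 162 bp, mean and SD). In the 250 bp just downstream of the start site lay 16.6% of the centres, against 14.5% of windows, and between 500 and 750 bp downstream 9.04% against 12.1%. By position, the median log2 ratio was -0.66 for the 240 wholly upstream, -0.69 for the 181 with a start site inside and -0.67 for the 110 wholly downstream.

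**Figure D4:**
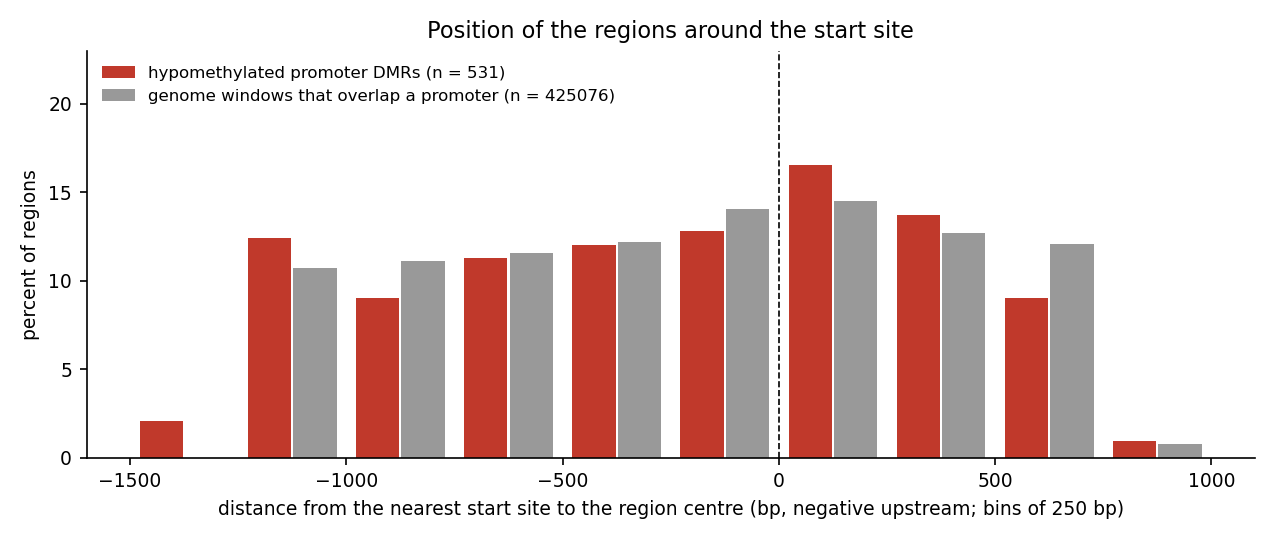
Share of regions by the distance of their centre from the nearest start site, in bins of 250 bp, for the 531 promoter DMRs (red) and 425076 windows of the genome that overlap a promoter (grey). The red bars follow the grey ones across the promoter, with 16.6% against 14.5% in the first bin downstream.

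At 278 promoter DMRs (52.4%) a gene's 5′ end provided the promoter, and at the other 253 it belonged only to transcripts that start further inside. Both kinds had similar medians (-0.68 and -0.66). Exons were overlapped by 303 (57.1%) and coding exons by 179 (33.7%), against 49.5% and 26.2% of promoter windows, which are shorter than merged regions. Hypermethylated promoter DMRs had higher shares, of 65.9% and 41.5%. Promoters of genes on opposite strands were shared by 20. A gene had up to 3 of these DMRs, at Lpcat4, a lysophospholipid acyltransferase (log2 ratios of -0.68, -0.56 and -0.85), and 19 genes had 2 or more. A hypermethylated promoter DMR was present as well in 16 genes, among them Tspan5, a tetraspanin, and Slc16a11, a monocarboxylate transporter. Another hypomethylated DMR lay within 5000 bp of 90 promoter DMRs (16.9%), against 11.5% for those outside promoters, and a hypermethylated one lay that close to 22 (4.14%).

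CpG content lay in a middle range. The 369 promoter DMRs of 500 bp held a median of 9 CpGs, against 6 in promoter windows of the genome, 7 in hypomethylated DMRs outside promoters and 10 in hypermethylated promoter DMRs of the same length. Between 5 and 19 CpGs were held by most of them, with 45.5% at 5 to 9 and 40.9% at 10 to 19, against 30.5% and 16.5% of promoter windows. Both ends of the range were thin: 9.76% held 0 to 4 CpGs, against 39.5% of windows, and 3.52% held 20 to 39, against 8.23% of windows and 15.4% of hypermethylated promoter DMRs. The antibody needs methylated CpGs, so that a region with few of them gives little signal in any sample. One promoter DMR held no CpG at all within its bounds.

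**Figure D5:**
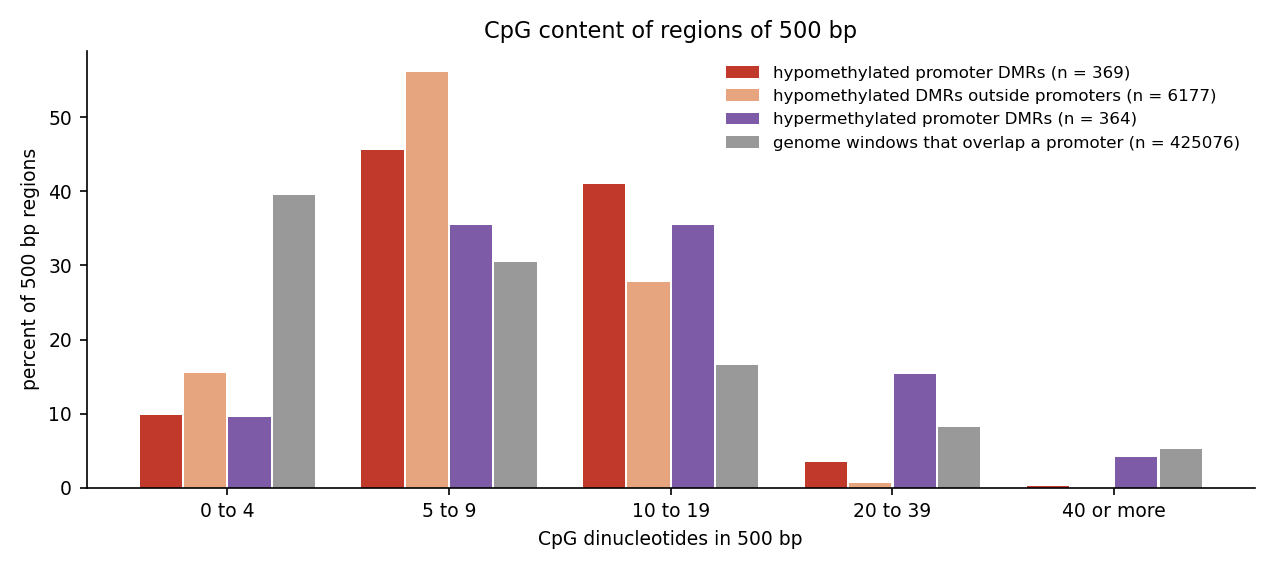
Share of regions of 500 bp by their number of CpGs, for promoter DMRs that lost signal (red), hypomethylated DMRs outside promoters (orange), hypermethylated promoter DMRs (purple) and all promoter windows (grey). Red bars are tallest at 5 to 9 and 10 to 19 CpGs (45.5% and 40.9%) and fall to 3.52% at 20 to 39.

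CpG islands, taken as 300 bp or more with a GC content of 50% and 0.6 of the CpGs that base composition would give, were overlapped by 113 promoter DMRs (21.3%). The share was 24.4% for promoter windows, 39.5% for hypermethylated promoter DMRs and 8.96% for hypomethylated DMRs outside promoters. Under stricter island limits (500 bp, 55% GC and 0.65) the shares were 7.16%, 19.4%, 25.8% and 0.66%. Promoter DMRs in an island by the first limits had somewhat more signal in normal intestine (median 0.472 rpm) than those without one (0.397 rpm), and the same median log2 ratio (-0.68 and -0.67).

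Signal and change both went with CpG density. From the 44 promoter DMRs with under 1 CpG per 100 bp, through the 252 with 1 to 2 and the 217 with 2 to 4, to the 18 with 4 or more, the median in normal intestine was 0.343, 0.383, 0.448 and 0.527 rpm. The median log2 ratio over the same classes was -0.58, -0.65, -0.70 and -0.83. By signal in normal intestine the order ran the other way, from -0.74 at the 94 under 0.3 rpm to -0.64 at the 114 of 0.6 rpm or more. The listing used these same ratios, and none of these trends was tested. Longer regions had lower ratios too, with a median of -0.77 for the 162 merged from several windows and -0.63 for the 369 of 1 window. A region has to pass the same fold in each window it is merged from, so that length and ratio are not independent. Protein-coding and other genes did not stand apart (-0.68 and -0.67).

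A set of 8 short motifs was searched on both strands of the regions of 500 bp, as letters only. TGANTCA, the AP-1 motif, occurred in 84 of 369 promoter DMRs (22.8%), against 12.7% of promoter windows and 10.99% of hypermethylated promoter DMRs, but in 23.5% of hypomethylated DMRs outside promoters. With regions of 5 to 19 CpGs only, the shares were 23.8%, 12.8%, 12.4% and 24.5%. CAAAGTC, as bound by HNF4, occurred in 50 (13.6%), against 7.5% of promoter windows, 8.52% of hypermethylated promoter DMRs and 7.87% of hypomethylated DMRs outside promoters, and with 5 to 19 CpGs only the shares were 14.4%, 7.76%, 8.91% and 7.89%. For the GATA motif, AGATAA, the share was 26% of promoter DMRs against 23.2% of promoter windows, and for that of LEF factors, CTTTGAT, it was 8.4% against 7.59%. For Sp1, GGGCGG, the share was 13.3% against 17.4%, and for the promoter box TATAAA it was 23.8% against 27.5%. With 5 to 19 CpGs only, both gaps were small, at 13.5% against 14.4% for GGGCGG and 22.6% against 23.2% for TATAAA. The letters CCAAT were found in 48.2% of promoter DMRs against 49.5% of promoter windows. The motif of ETS factors, CTTCCGG, was found in 3.25% against 4.01%. Among the sequences shown, AGATAA stands in those of Ddc and Pla2g10. Of the 10 regions of lowest ratio under the naming rule, TGANTCA stands in Arhgap8 and Nedd4l. Such matches are descriptions of the letters and not sites of binding.

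The share of hypomethylated DMRs that lay in a promoter differed between chromosomes. The autosomes with the highest shares, chromosomes 2, 4, 7 and 11, were grouped, so that the gap to the others follows from the grouping. On these chromosomes, 234 of 2270 hypomethylated DMRs (10.3%, from 10.1% to 10.6% on each) lay in a promoter, and on the other autosomes 293 of 6533 (4.48%, from 1.74% to 5.97%). Promoter windows were also more numerous on chromosomes 2, 4, 7 and 11, and per 1000 promoter windows the counts were 1.57 and 1.17. By that measure the chromosomes did not fall into the same groups, since chromosome 7 (1.35) lay below chromosomes 15 (1.70), 5 (1.47), 13 (1.47) and 19 (1.44). On chromosome X, 4 of 42 lay in a promoter (9.52%), or 0.157 per 1000 promoter windows. Counting only promoters at the 5′ end of a gene, the shares were 5.24% and 2.42%. The part of annotation density in these shares was not tested further.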

How the data were processed

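MeDIP-seq was carried out by the authors on 11 samples of mouse ileum, with input DNA of 3. Per the labels (the submitters' processing notes), Bowtie 0.12.5 and mm9 were used. According to the methods, unique hits were kept, reads were extended to 300 nucleotides and coverage was taken in windows of 500 bp that start every 250 bp. The deposited rpm values are this coverage, scaled by the authors to the number of uniquely aligned reads and rounded to 2 decimals. Only regions that passed the authors' criteria were deposited. Overlapping windows were merged, and the rpm of each of the 10812 DMRs of 1 window equalled that of its window. Deposited columns of ratios and p-values from the authors' comparison were not used, and the RNA samples were not analysed here.

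Regions were joined to 95458 transcripts of 37273 genes (gencode vM1) on NCBIM37, the same build as mm9. Log2 values were taken after adding 0.05 rpm, and limma 3.58.1 with a mean trend was fitted to all 13980 merged DMRs, with p-values adjusted by Benjamini and Hochberg. Scripts were tested on simulated data. The members and gene lists were chosen with earlier results of these data known. Regions named were the 10 of lowest ratio with complete separation and at least 0.5 rpm in normal intestine, 3 each with the most CpGs, the widest adenoma range, the greatest length and the ratio closest to 0, up to 4 per gene list by normal signal, and those at the edge of the promoter rule. Sequences are from mm9, except mature miRNAs from RefSeq, and none is shown for chromosome 18. Values of some named regions are not reported here.

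Library totals are those the study gives. Counting error was taken from the number of fragments of 300 bp that make up the coverage of 500 bp at each library's depth. It covers counting error only. Mouse numbers pair N4, N5 and N6 with Ad4, Ad4-1, Ad5 and Ad6 by the animal identifiers in the labels. Pearson's r of deviations from the group mean over all merged DMRs was -0.05 to 0.03 for pairs of 1 mouse and -0.03 to 0.07 for other pairs. Alternatives were other pseudocounts, rescaling, a filter on low values, single library series, leaving out each sample, and other promoter and island definitions.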

Additional observations from a re-analysis of the deposited data

Results flagged for a closer look

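In groups of 5, a sample was singled out when its gap to the nearest other sample was large against the range of the group, and chance does so in about 1 in 20 groups. Among the 39 groups of adenoma values examined, this happened at the Rbm47 promoter DMR, where Ad4-1 had 0.05 rpm and the other adenomas had 0.13 to 0.16 rpm. At this level a sample holds few fragments. The B6 and APCMin normal groups of 3 were not examined in this way.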

How the results depend on the processing

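Of the 531 promoter DMRs, 278 remained when promoters were limited to gene 5' ends, 266 with protein-coding transcripts only and 309 with 250 bp on either side of the start site. An overlap of 250 bp left 421, and 693 windows of 500 bp met the rule. The share in an island fell to 7.16% under stricter limits. The listing criteria held again at 481, at 284 with complete separation in place of the rank criterion, at 123 with a ratio past 2, at 152 after rescaling each sample to the same mean over all merged DMRs, and at 309 to 340 when each sample was left out in turn, where fewer samples make the rank criterion harder to reach. The median log2 ratio of -0.68 was -0.75 and -0.31 with pseudocounts of 0.01 and 0.5 rpm, -0.49 after rescaling, and -0.68 to -0.66 with each sample left out. Rescaling moved the median of all merged DMRs by 0.18, and most of these DMRs had been listed for lower signal in adenoma.

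In limma, APCMin normal against B6 gave 0 calls among the promoter DMRs, 1 (Synj2) with a pseudocount of 0.5 rpm, and 0 to 0 with each sample left out. Adenoma against normal, which had listed the regions, gave 531 calls (63.3% of all merged DMRs were called lower), 527 to 531 with each sample left out and 455 after rescaling. For the 7 samples of mice 4, 5 and 6, it gave 451 with the mouse as a replicate block and 478 without the block, so that the pairing changed no result by over 1.5 times. For the 38 named regions, 0 of 646 alternative log2 ratios changed sign, and 59 moved by more than the SD of the adenomas, 30 of them with a pseudocount of 0.5 rpm. Depth limits single regions, since 0.5 rpm stands for 11.6 to 21.9 fragments (counting error 21.4% to 29.4%).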

Other observations

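Genes of the phospholipase A2 family, singled out after their values were seen, held 6 promoter DMRs that lost signal, among 21 annotated members, where 1.86% of all protein-coding genes held one. Besides Pla2g10 and Pla2g2a, they were Pla2g2c (0.502 rpm in normal intestine and 0.27 rpm in adenoma), Pla2g2f (0.82 and 0.6 rpm), Pla2g12a (0.343 and 0.184 rpm) and Pla2g4b (0.34 and 0.218 rpm). Pla2g2a, Pla2g2c and Pla2g2f lie in 1 cluster on chromosome 4, so that they are not independent of each other. The log2 ratio of the family ranged from -1.70 at Pla2g10 to -0.42 at Pla2g2f. Adenomas and normal samples were fully separated at 5 of the 6 regions, with Pla2g12a as the exception, against 51.9% of all hypomethylated DMRs. With 6 regions chosen after their values were seen, this is a description only.

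Solute carriers held such regions at 9 of 354 annotated genes, near the 1.86% of all protein-coding genes, and olfactory and vomeronasal receptors at 3 of 1416.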
